A study of Homo sapiens with 20 samples.

Results

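The 35 genes described here are the 19 human Wnt ligands, the 10 Frizzled receptors, the LRP5 and LRP6 coreceptors and the 4 kinase-type coreceptors ROR1, ROR2, RYK and PTK7. They were listed by name, and 32 of them were measured among the 19775 genes tested. WNT3 and FZD8 were represented only by probe sets that name a second gene as well, so they were kept out of every count and are given by probe set, and WNT3A had no probe set. RNA came from MII cells (MCF10-T1k), human mammary epithelial cells of an established line transformed with RAS, on 20 Affymetrix HG-U133 Plus 2.0 arrays. The 5 groups of 4 arrays were cells given siRNA against APC and TAZ together (siAPC/siTAZ), APC alone (siAPC), beta-catenin and TAZ together (sibcat/siTAZ), beta-catenin alone (sibcat), or GFP as the control (siGFP). All 5 groups were transfected with RNAi MAX and then kept in ordinary growth medium with no further treatment. No group received TAZ siRNA alone, all cells are of 1 transformed line, and the labels call replicates A to D biological without saying whether they were separate cultures, so the tests rest on the variation among these arrays, which may be technical.

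Wnt ligands are secreted lipid-modified proteins that bind a Frizzled, a receptor with a membrane-spanning bundle like that of G protein-coupled receptors, together with a coreceptor. With LRP5 or LRP6 the complex stops the APC-containing destruction complex from marking beta-catenin for degradation, and beta-catenin then acts with TCF/LEF factors on transcription. With ROR1, ROR2, RYK or PTK7 the same receptors signal without beta-catenin, to cell polarity and movement. In the mammary gland, Wnt ligands are known for roles in branching and in the maintenance of basal stem cells. TAZ, the product of WWTR1, is a coactivator of TEAD factors.

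All values are RMA log2 signals, so a difference of 1 is a doubling of signal, and a gene's levels are compared only between groups, never with another gene's. A change was called where the adjusted p of limma's moderated test was under 0.05. The knockdowns were seen in the data: WWTR1 averaged 7.98 ± 0.05 in siAPC/siTAZ cells, 8.41 ± 0.07 in sibcat/siTAZ cells and 11.05 ± 0.12 in siGFP cells (SD, n = 4 each). APC was 0.88 lower in siAPC cells and CTNNB1, the gene of beta-catenin, 1.33 lower in sibcat cells than in siGFP cells, and with TAZ siRNA APC fell by a further 0.46 on siAPC and CTNNB1 by a further 1.41 on sibcat. CTNNB1 was 0.28 higher with TAZ siRNA on siAPC, and WWTR1 was already 0.41 lower in siAPC cells and 0.43 lower in sibcat cells than in siGFP cells. The comparisons that add TAZ siRNA thus also differ in APC or CTNNB1 signal, and differently in the 2 backgrounds. Below, an effect of TAZ siRNA means the whole difference between the groups with and without it. The part of APC and CTNNB1 in that difference was not tested. All 7 measured epithelial markers were above background, 0 of 4 leukocyte markers and 1 of 6 endothelial markers were, and array medians lay between 5.07 and 5.11. Of the 7 epithelial markers, 2 rose and 5 fell in each single depletion, 1 rose and 6 fell with TAZ siRNA on siAPC, and 1 rose and 5 fell with it on sibcat. The log2 of their summed signal ran from 13.97 to 14.07 in siAPC/siTAZ cells, 14.41 to 14.45 in siAPC cells, 13.92 to 13.96 in sibcat/siTAZ cells, 14.18 to 14.34 in sibcat cells and 14.43 to 14.48 in siGFP cells. Of 7 fibroblast markers, COL1A1, COL3A1, PDGFRB and DCN were above background and the other 3 (COL1A2, PDGFRA and LUM) were not. The log2 of the summed fibroblast signal ran from 13.15 to 13.19 in siAPC/siTAZ cells, 11.55 to 11.62 in siAPC cells, 13.06 to 13.16 in sibcat/siTAZ cells, 12.03 to 12.11 in sibcat cells and 12.51 to 12.63 in siGFP cells. The difference between the 3′ and 5′ ACTB control probe sets, a measure of RNA and labelling quality, ran from 1.87 to 2.07 in siAPC/siTAZ cells, 1.54 to 1.60 in siAPC cells, 1.98 to 2.12 in sibcat/siTAZ cells, 1.76 to 1.87 in sibcat cells and 1.78 to 1.92 in siGFP cells. The same difference for GAPDH was 0.15 to 0.17 in siAPC/siTAZ cells, 0.11 to 0.15 in siAPC cells and 0.15 to 0.21 in sibcat/siTAZ cells. It was 0.08 to 0.16 in sibcat cells and 0.09 to 0.10 in siGFP cells. The fibroblast sum was thus higher with TAZ siRNA and lower in both single depletions. The epithelial sum was lower with TAZ siRNA and in sibcat cells. The ACTB measure was lower in siAPC cells and higher with TAZ siRNA on siAPC and on sibcat. The GAPDH measure was higher in siAPC than in siGFP cells, and its means were higher with TAZ siRNA in both backgrounds. Their part in the changes below was not tested. These are bulk samples, in which fewer cells expressing a gene and less RNA per cell cannot be told apart.

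The 250 bases upstream of 3 members are shown for genes chosen after their values were seen, from the members with an entry in the RefSeq promoter table (GRCh38.p14). ROR1, on chromosome 1, had the largest rise in both single depletions. FZD5, on chromosome 2, was lowest in siAPC/siTAZ cells, and FZD1, on chromosome 7, rose with TAZ siRNA in both backgrounds. The windows lie outside the gene, ending at the base before its annotated start, at chr1:63773767-63774016 on the plus strand, chr2:207769907-207770156 on the minus strand and chr7:91264183-91264432 on the plus strand.
ROR1: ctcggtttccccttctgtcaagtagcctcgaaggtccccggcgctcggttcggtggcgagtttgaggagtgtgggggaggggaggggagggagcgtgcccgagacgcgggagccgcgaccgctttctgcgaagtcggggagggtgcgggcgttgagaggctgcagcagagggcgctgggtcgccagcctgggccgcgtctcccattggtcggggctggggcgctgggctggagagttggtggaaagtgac
FZD5: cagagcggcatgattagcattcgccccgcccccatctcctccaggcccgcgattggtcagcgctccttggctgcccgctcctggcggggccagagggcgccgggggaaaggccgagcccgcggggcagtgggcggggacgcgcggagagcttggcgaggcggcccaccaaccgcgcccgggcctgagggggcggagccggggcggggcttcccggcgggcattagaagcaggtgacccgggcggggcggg
FZD1: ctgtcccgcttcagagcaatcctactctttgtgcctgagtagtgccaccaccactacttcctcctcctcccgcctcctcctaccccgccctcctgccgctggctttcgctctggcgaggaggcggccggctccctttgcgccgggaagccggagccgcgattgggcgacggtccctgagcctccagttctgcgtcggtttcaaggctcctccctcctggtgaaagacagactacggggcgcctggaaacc
A pair of short motifs was searched on both strands of windows from 250 bases before to shortly after each start, the TCF/LEF core CTTTGAT (reverse ATCAAAG) and the TEAD core GGAATG (reverse CATTCC), which do not overlap each other. The TCF/LEF letters were found in 0 of the 27 promoter windows of the 23 members in the table, against 919 of all 35116 windows (2.62%). The TEAD letters were found in 1 of the 27, that of WNT16, against 4928 of 35116 (14.03%). No base is in capitals in the 3 sequences because neither motif occurs in them, which says only that these letters are absent from these windows.

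Of the 32 measured members, 20 had a group mean above background in at least 1 group, and 17 in all 5. Background was taken as 5.25, the 95th percentile of the mean signals of 82 olfactory receptor genes. The other 12 were near background in every group, namely 10 of the 17 ligands (WNT1, WNT2, WNT2B, WNT4, WNT5B, WNT8A, WNT8B, WNT9B, WNT10A and WNT11), FZD9 and ROR2. WNT2B, WNT4, WNT5B and WNT10A each had a dimmer probe set called in at least 1 two-group comparison where the one used was not. For WNT4 these comparisons included siAPC, sibcat and siAPC/siTAZ cells against siGFP cells. For these 12, a low signal does not show that the transcript was absent. In contrast, 8 of the 9 Frizzleds, both LRP coreceptors and 3 of the 4 kinase-type coreceptors were above background in at least 1 group. LRP5 exceeded background only in the sibcat and siGFP means (5.33 ± 0.23 and 5.36 ± 0.20), and none of its differences was called on the probe set used, the largest being -0.18 between siAPC/siTAZ and siGFP cells (adjusted p = 0.18). The second LRP5 probe set, near background (mean 4.96), was called lower in siAPC/siTAZ cells, by 0.22 against siAPC cells (adjusted p = 0.0423) and 0.28 against siGFP cells (adjusted p = 0.00822). The 11 members that were above background and changed by at least 0.5 in 1 comparison or more are each described below with their 20 values.

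**Figure D1:**
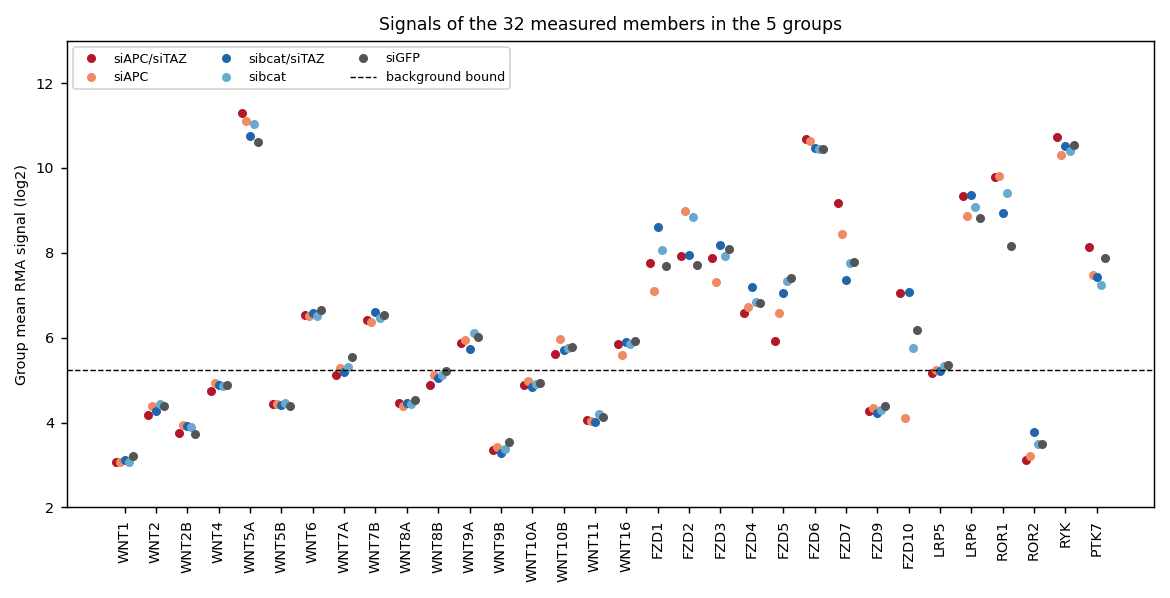
Mean RMA log2 signal of each of the 32 measured members in the 5 groups (points, 4 arrays each), ordered by family, with the background bound of 5.25 as a dashed line. Most ligands lie at or below the line in every group while most Frizzleds and coreceptors lie above it, and levels of different genes are not comparable with each other.

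WNT5A was the ligand that moved most. It is the prototype of the ligands that signal without beta-catenin, through ROR receptors among others (probe set 205990_s_at, gene at chr3:55465715-55505263 in GRCh38.p14). WNT5A gave log2 signals of 11.29, 11.30, 11.29 and 11.32 in siAPC/siTAZ cells and 11.07, 11.06, 11.18 and 11.09 in siAPC cells. It gave 10.70, 10.80, 10.76 and 10.74 in sibcat/siTAZ cells, 11.06, 11.14, 10.91 and 11.00 in sibcat cells, and 10.75, 10.65, 10.54 and 10.49 in siGFP cells. The siGFP arrays were the lowest, overlapping with the sibcat/siTAZ arrays alone, and the siAPC/siTAZ arrays were above all others. WNT5A rose by 0.49 ± 0.05 in siAPC cells (SE, 1.41-fold, limma adjusted p = 3.2e-07) and by 0.42 ± 0.05 in sibcat cells (1.34-fold, adjusted p = 3.2e-06) relative to siGFP cells. TAZ siRNA was followed by opposite changes in the 2 backgrounds, a rise of 0.20 ± 0.05 on siAPC (adjusted p = 0.00502) and a fall of 0.28 ± 0.05 on sibcat (adjusted p = 0.00044). The difference between these effects was 0.48 ± 0.08 (adjusted p = 7.3e-05). With the mean over both WNT5A probe sets, the rise on siAPC was 0.07 (adjusted p = 0.324). The difference of 0.14 ± 0.05 between sibcat/siTAZ and siGFP cells (adjusted p = 0.0397) lost its call without siGFP replicate C (adjusted p = 0.114) or D (0.15), or without sibcat/siTAZ replicate B (0.103), C (0.0743) or D (0.0618). The second WNT5A probe set was called 0.29 higher in that comparison (adjusted p = 0.00091).

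The other ligands above background moved little. WNT6 and WNT7B, canonical ligands of epithelia, had means of 6.52 to 6.66 and 6.38 to 6.61 over the 5 groups, with no called change on the probe set used. The WNT7B probe set carries the suffix that marks probes able to bind other transcripts. The other WNT7B probe set was near background (mean 4.74) and was called lower in siAPC cells than in siGFP cells (-0.46, adjusted p = 0.00036) and in siAPC/siTAZ cells than in siGFP cells (-0.49, adjusted p = 0.00013). Among the other 3 WNT6 probe sets, 1 that was also near background (mean 4.09) was called higher with TAZ siRNA on siAPC (0.31, adjusted p = 0.00167). WNT7A, a ligand of limb and reproductive tract patterning, was lower in siAPC/siTAZ cells (5.13 ± 0.04) and sibcat/siTAZ cells (5.19 ± 0.09) than in siGFP cells (5.54 ± 0.09), and both combined-depletion means were below background. It was at least 1.22-fold lower in siAPC/siTAZ than in siGFP cells (fitted change -0.40, adjusted p = 8.2e-05), and the fitted change in sibcat/siTAZ cells was -0.35 (adjusted p = 0.00039). Its fall of 0.22 in sibcat cells (adjusted p = 0.0182) was lost without siGFP replicate A (adjusted p = 0.0542) or B (0.0636), or sibcat replicate A (0.061) or B (0.0592). It was above background in 3 of the 5 groups. WNT9A, a ligand of joint development, fell by 0.36 ± 0.07 in sibcat/siTAZ cells relative to sibcat cells (5.74 ± 0.09 against 6.10 ± 0.14, adjusted p = 0.00068). WNT10B, a ligand of mammary and bone development, was 0.35 ± 0.13 lower in siAPC/siTAZ cells than in siAPC cells (adjusted p = 0.028). That call was lost without siAPC replicate B (adjusted p = 0.0733) or D (0.0983), or siAPC/siTAZ replicate C (0.0767) or D (0.0867). WNT16, a ligand of bone and skin, fell by 0.33 ± 0.09 in siAPC cells relative to siGFP cells (5.60 ± 0.13 against 5.93 ± 0.08, adjusted p = 0.00878), a change of -0.15 with the mean over its probe sets (adjusted p = 0.0752). Its rise of 0.24 with TAZ siRNA on siAPC (adjusted p = 0.0422) was lost without siAPC replicate A (adjusted p = 0.0763) or D (0.151), or siAPC/siTAZ replicate A (0.127), C (0.091) or D (0.0704).

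The 3 probe sets that name WNT3 together with LOC101929777 had group means between 3.83 and 5.36. The brightest, 231743_at, was close to background, and none of its 8 two-group differences was called. A dimmer one, 229103_at, was called 0.81 higher in siAPC cells than in siGFP cells (4.64 ± 0.10 against 3.83 ± 0.02, adjusted p = 5.4e-08), with both means below background.

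FZD2 rose most among the Frizzleds in both single depletions, and TAZ siRNA lowered it in both backgrounds. FZD2 is a receptor for WNT5A and other ligands (probe set 210220_at, chr17:44557484-44561262). Its signals were 7.96, 7.84, 7.89 and 7.99 in siAPC/siTAZ cells and 9.03, 8.98, 8.99 and 8.92 in siAPC cells. They were 7.97, 7.96, 7.93 and 7.99 in sibcat/siTAZ cells, 8.79, 8.71, 8.87 and 8.99 in sibcat cells, and 7.63, 7.63, 7.75 and 7.82 in siGFP cells. The 8 arrays of the single depletions lay above all 12 others, and the siGFP arrays were below both combined depletions. FZD2 rose by 1.27 ± 0.06 in siAPC cells (2.42-fold, adjusted p = 3.9e-13) and 1.13 ± 0.06 in sibcat cells (2.19-fold, adjusted p = 3.7e-12). It fell by 1.06 ± 0.06 when TAZ siRNA joined siAPC (adjusted p = 5.1e-12) and by 0.88 ± 0.06 when it joined sibcat (adjusted p = 1.8e-10). The difference between these falls was -0.18 ± 0.08 and was not called (adjusted p = 0.104). The second FZD2 probe set was called in the same direction in all 4 of these comparisons.

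FZD7 separated the siAPC from the sibcat background. This receptor is known in mammary epithelium and in basal-like breast cancer (probe set 203706_s_at, chr2:202033855-202038441). FZD7 gave 9.11, 9.14, 9.21 and 9.21 in siAPC/siTAZ cells and 8.50, 8.46, 8.39 and 8.44 in siAPC cells. It gave 7.22, 7.39, 7.41 and 7.39 in sibcat/siTAZ cells, 7.78, 7.76, 7.70 and 7.75 in sibcat cells, and 7.74, 7.81, 7.79 and 7.78 in siGFP cells. Only sibcat and siGFP cells overlapped, and sibcat/siTAZ replicate A was the lowest array. FZD7 rose by 0.67 ± 0.04 in siAPC cells relative to siGFP cells (1.59-fold, adjusted p = 1.4e-10), while sibcat cells differed from siGFP cells by -0.03 (95% interval -0.12 to 0.06, adjusted p = 0.629). TAZ siRNA raised it further on siAPC, by 0.72 ± 0.04 (adjusted p = 3.4e-11), and lowered it on sibcat, by 0.40 ± 0.04 (adjusted p = 4.6e-07). The difference between these effects was 1.11 ± 0.06 (adjusted p = 6.8e-11), and siAPC/siTAZ cells stood 1.81 above sibcat/siTAZ cells (3.52-fold, adjusted p = 2.6e-17). The other FZD7 probe set was called in the same direction in each of these called comparisons.

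FZD10 was below background on all 4 arrays of siAPC cells and was higher with TAZ siRNA in both backgrounds. FZD10 is a receptor of canonical Wnt signalling found in several tumours (probe set 219764_at, its only one, chr12:130162464-130165740). Its signals were 6.83, 7.16, 7.10 and 7.15 in siAPC/siTAZ cells and 4.15, 3.77, 4.58 and 3.92 in siAPC cells. They were 7.16, 7.05, 7.14 and 6.95 in sibcat/siTAZ cells, 5.82, 5.80, 5.85 and 5.54 in sibcat cells, and 6.22, 6.23, 6.01 and 6.27 in siGFP cells. Both combined depletions lay above siGFP, sibcat lay below it, and siAPC lay lowest, with no overlap except between the combined depletions. Because the siAPC signals are only bounded by the background level, FZD10 was at least 1.91-fold lower in siAPC cells than in siGFP cells (fitted change -2.08 ± 0.13, adjusted p = 6.2e-11). With TAZ siRNA on siAPC it was at least 3.51-fold higher (fitted change 2.96 ± 0.13, adjusted p = 2.2e-13). On sibcat, TAZ siRNA raised it by 1.32 ± 0.13 (2.50-fold, adjusted p = 7.8e-08), after a fall of 0.43 ± 0.13 with sibcat alone (adjusted p = 0.0113). The combined depletions differed from each other by -0.02 (95% interval -0.28 to 0.25, adjusted p = 0.944), and each was above siGFP, by 0.88 in siAPC/siTAZ cells and 0.89 in sibcat/siTAZ cells.

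FZD1 went opposite ways in the single depletions and rose with TAZ siRNA in both backgrounds. FZD1 acts mainly in canonical signalling (probe set 204451_at, chr7:91264433-91271326). FZD1 gave 7.78, 7.77, 7.75 and 7.77 in siAPC/siTAZ cells and 7.04, 7.20, 7.08 and 7.13 in siAPC cells. It gave 8.54, 8.62, 8.66 and 8.65 in sibcat/siTAZ cells, 8.05, 8.03, 8.06 and 8.09 in sibcat cells, and 7.70, 7.69, 7.64 and 7.68 in siGFP cells. No groups overlapped, and the order was sibcat/siTAZ, sibcat, siAPC/siTAZ, siGFP and siAPC. FZD1 fell by 0.56 ± 0.04 in siAPC cells (adjusted p = 2.3e-10) and rose by 0.38 ± 0.04 in sibcat cells (adjusted p = 1e-07) relative to siGFP cells. TAZ siRNA raised it by 0.66 ± 0.04 on siAPC (adjusted p = 1.9e-11) and by 0.56 ± 0.04 on sibcat (adjusted p = 4.3e-10), and the difference of 0.10 ± 0.05 between these was not called (adjusted p = 0.228). The siAPC/siTAZ arrays were 0.09 above siGFP, which was not called (adjusted p = 0.06). The other 2 FZD1 probe sets were near background (means 4.29 and 3.16), and the dimmer was called 0.34 lower in sibcat cells, against the direction of the brighter one. With the mean over all 3, the sibcat change was 0.08 (adjusted p = 0.249).

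FZD5 and FZD4, and FZD3 on the probe set used, were lower in siAPC/siTAZ cells than in siGFP cells. FZD3, a receptor of axon guidance and planar polarity (probe set 239082_at, chr8:28494212-28574258), gave 7.73, 7.94, 7.95 and 7.93 in siAPC/siTAZ cells and 7.42, 7.34, 7.21 and 7.29 in siAPC cells. It gave 8.21, 8.10, 8.26 and 8.18 in sibcat/siTAZ cells, 8.0, 7.92, 7.98 and 7.79 in sibcat cells, and 8.0, 8.07, 8.06 and 8.17 in siGFP cells. The siAPC arrays lay below all others, and the siGFP arrays overlapped with both sibcat groups. FZD3 fell by 0.76 ± 0.06 in siAPC cells (1.69-fold lower, adjusted p = 3.4e-09) and was not called in sibcat cells (-0.15, adjusted p = 0.0585). TAZ siRNA raised it by 0.57 ± 0.06 on siAPC (adjusted p = 1.6e-07) and by 0.27 ± 0.06 on sibcat (adjusted p = 0.00195). Between sibcat/siTAZ and siGFP cells the change of 0.11 was not called (adjusted p = 0.152). The other 3 FZD3 probe sets were called higher in that comparison, by 0.48, 0.27 and 0.19. The call of -0.19 in siAPC/siTAZ cells against siGFP cells (adjusted p = 0.0158) was lost without siAPC/siTAZ replicate A (adjusted p = 0.0728) or siGFP replicate D (0.0594). Of the other 3 FZD3 probe sets, 2 were called lower there and 1 was called 0.27 higher (adjusted p = 0.0003). The latter is about as bright as the one used (mean 7.86 against 7.88). The direction of FZD3 in that comparison thus depends on the probe set.

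FZD5, a receptor of gut and eye development (probe set 221245_s_at, chr2:207762598-207769906), had the largest fall in combined APC and TAZ depletion. Its signals were 5.67, 5.95, 5.88 and 6.13 in siAPC/siTAZ cells and 6.50, 6.64, 6.68 and 6.46 in siAPC cells. They were 7.01, 7.11, 7.03 and 7.07 in sibcat/siTAZ cells, 7.43, 7.22, 7.45 and 7.25 in sibcat cells, and 7.23, 7.40, 7.53 and 7.44 in siGFP cells. Only sibcat and siGFP overlapped. FZD5 fell by 0.83 ± 0.08 in siAPC cells (1.78-fold lower, adjusted p = 1e-07) and by a further 0.66 ± 0.08 with TAZ siRNA (adjusted p = 1.8e-06), which left siAPC/siTAZ cells 2.81-fold below siGFP cells (-1.49 ± 0.08, adjusted p = 1.1e-11). In sibcat cells the change was -0.06 (95% interval -0.24 to 0.12, adjusted p = 0.635). TAZ siRNA lowered it by 0.28 ± 0.08 there (adjusted p = 0.014), a call lost without sibcat replicate C (adjusted p = 0.0511) and with the mean over both probe sets (-0.14, adjusted p = 0.0865). The second FZD5 probe set was near background (mean 4.94) and was called lower in siAPC/siTAZ cells alone, by 0.27 against siGFP cells (adjusted p = 0.0135) and by 0.25 against sibcat/siTAZ cells (adjusted p = 0.0212).

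FZD4, the receptor for norrin in blood vessels (probe set 218665_at, chr11:86945679-86955395), gave 6.48, 6.62, 6.63 and 6.57 in siAPC/siTAZ cells and 6.72, 6.67, 6.84 and 6.68 in siAPC cells. It gave 7.26, 7.18, 7.09 and 7.21 in sibcat/siTAZ cells, 6.97, 6.83, 6.78 and 6.83 in sibcat cells, and 6.74, 6.86, 6.92 and 6.77 in siGFP cells. The sibcat/siTAZ arrays were above and the siAPC/siTAZ arrays below every other group. Neither single depletion was called against siGFP (-0.09, 95% interval -0.21 to 0.02, in siAPC cells and 0.03, -0.09 to 0.15, in sibcat cells). TAZ siRNA raised FZD4 on sibcat by 0.33 ± 0.06 (adjusted p = 8.3e-05) and lowered it on siAPC by 0.15 ± 0.06 (adjusted p = 0.0321), with a difference of -0.48 ± 0.08 between the effects (adjusted p = 7.8e-05). The fall on siAPC lost its call without siAPC replicate A (adjusted p = 0.0542) or C (0.121), or siAPC/siTAZ replicate A (0.11) or D (0.0607). The rise on sibcat was 0.18 with the mean over both probe sets (adjusted p = 0.0872), of which the second was near background (mean 3.82).

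FZD6, a planar polarity receptor of skin and hair, had means of 10.68 ± 0.01 in siAPC/siTAZ cells, 10.63 ± 0.10 in siAPC cells, 10.48 ± 0.04 in sibcat/siTAZ cells, 10.45 ± 0.12 in sibcat cells and 10.44 ± 0.07 in siGFP cells. It was 0.23 ± 0.06 higher in siAPC/siTAZ cells than in siGFP cells (adjusted p = 0.00158). The smaller rise of 0.18 in siAPC cells (adjusted p = 0.0118) lost its call without siAPC replicate C (adjusted p = 0.0553). FZD9 was near background, with no called change.

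The probe sets that name FZD8 together with MIR4683 fell in siAPC cells and rose with TAZ siRNA in both backgrounds. MIR4683 (chr10:35641172-35641252) lies inside the FZD8 gene (chr10:35638247-35642296), so the signal cannot be assigned to FZD8 from the annotation alone. Probe set 227405_s_at gave 8.11, 7.95, 8.04 and 8.03 in siAPC/siTAZ cells and 7.17, 7.14, 7.08 and 6.98 in siAPC cells. It gave 9.07, 8.94, 8.82 and 9.07 in sibcat/siTAZ cells, 7.78, 7.65, 7.77 and 7.81 in sibcat cells, and 7.93, 7.93, 7.82 and 7.96 in siGFP cells. The sibcat/siTAZ arrays were highest, the siAPC arrays lowest, and the siAPC/siTAZ and siGFP arrays overlapped. Over the 13522 probe sets without a single symbol, it fell by 0.82 ± 0.07 in siAPC cells relative to siGFP cells (adjusted p = 4.9e-09). TAZ siRNA raised it by 0.94 ± 0.07 on siAPC (adjusted p = 3.7e-10) and 1.22 ± 0.07 on sibcat (adjusted p = 2.4e-11), and the difference of -0.28 between these was not called (adjusted p = 0.0757). Probe set 224325_at changed in the same directions, by -1.31 in siAPC cells and by 1.30 and 1.35 with TAZ siRNA on siAPC and on sibcat. The third, 216587_s_at, was below background and was not called.

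**Figure D2:**
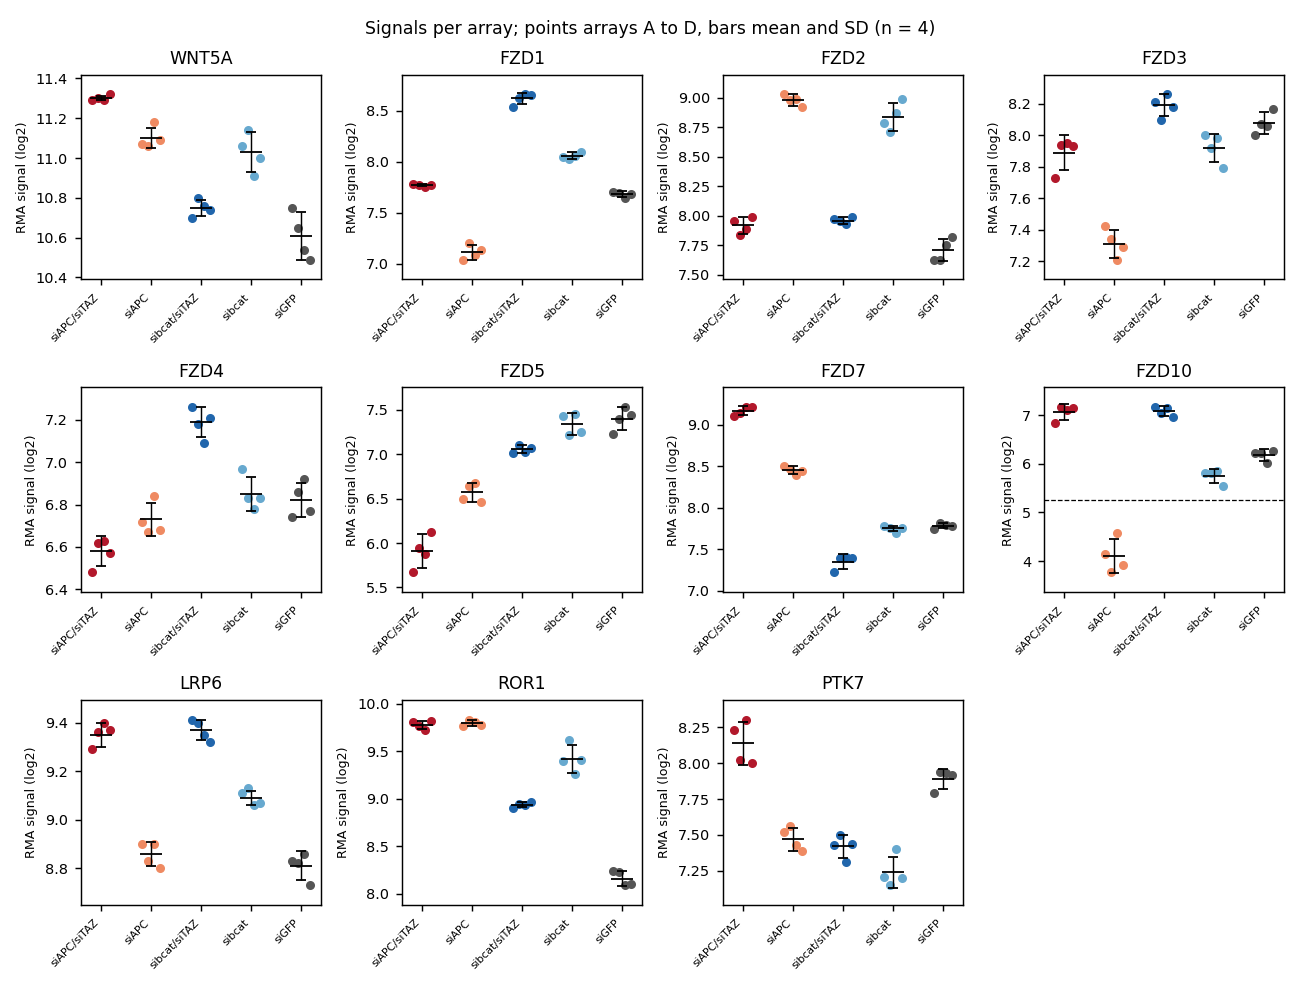
RMA log2 signal on each array of the 11 members above background with a change of at least 0.5 (points, replicates A to D from left to right within a group). Bars give the group mean and SD (n = 4), and a dashed line the background bound where it falls in the plotted range. FZD2 is high in both single depletions, FZD7 and ROR1 separate the siAPC from the sibcat groups, and FZD10 drops below the line in siAPC cells alone. Each panel has its own vertical scale, which does not start at 0.

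Of the coreceptors of beta-catenin signalling, LRP6 rose with TAZ siRNA in both backgrounds. LRP6 is phosphorylated when a ligand binds and then recruits Axin to the membrane (probe set 225745_at, chr12:12116025-12267044). Its signals were 9.29, 9.36, 9.40 and 9.37 in siAPC/siTAZ cells and 8.90, 8.83, 8.90 and 8.80 in siAPC cells. They were 9.41, 9.40, 9.35 and 9.32 in sibcat/siTAZ cells, 9.11, 9.13, 9.06 and 9.07 in sibcat cells, and 8.83, 8.82, 8.86 and 8.73 in siGFP cells. The 8 arrays with TAZ siRNA were above all others, sibcat came next, and siAPC and siGFP overlapped. LRP6 rose by 0.50 ± 0.04 with TAZ siRNA on siAPC (1.41-fold, adjusted p = 2.3e-09) and by 0.28 ± 0.04 on sibcat (1.21-fold, adjusted p = 1.3e-05), a difference of 0.22 ± 0.06 (adjusted p = 0.00521). Relative to siGFP cells it rose by 0.28 ± 0.04 in sibcat cells (adjusted p = 8.5e-06), while the change in siAPC cells was 0.05 (95% interval -0.04 to 0.13, adjusted p = 0.391). The other 2 LRP6 probe sets were called higher in the same 3 comparisons and not called in siAPC cells. For the difference between the TAZ siRNA effects, 1 of them was called (0.23) and 1 was not (0.14, adjusted p = 0.353).

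ROR1 was the most strongly raised member in both single depletions. ROR1 binds WNT5A and is a surface marker of several tumours (probe set 232060_at, chr1:63774017-64181498). ROR1 gave 9.81, 9.77, 9.73 and 9.82 in siAPC/siTAZ cells and 9.77, 9.83, 9.81 and 9.78 in siAPC cells. It gave 8.90, 8.95, 8.94 and 8.97 in sibcat/siTAZ cells, 9.40, 9.62, 9.26 and 9.41 in sibcat cells, and 8.24, 8.23, 8.09 and 8.10 in siGFP cells. The siGFP arrays were below all others, and only siAPC/siTAZ and siAPC overlapped. ROR1 rose by 1.63 ± 0.06 in siAPC cells (3.10-fold, adjusted p = 1.1e-14) and by 1.26 ± 0.06 in sibcat cells (2.39-fold, adjusted p = 1e-12) relative to siGFP cells. TAZ siRNA lowered it by 0.48 ± 0.06 on sibcat (adjusted p = 1.3e-06), whereas on siAPC the change was -0.01 (95% interval -0.14 to 0.11, adjusted p = 0.868), and these effects differed by 0.47 ± 0.08 (adjusted p = 0.00016). The other 2 ROR1 probe sets were called in the same direction in both single depletions and in the fall on sibcat, and neither was called for TAZ siRNA on siAPC. The ROR1 promoter window printed above held neither the TCF/LEF nor the TEAD letters.

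PTK7 fell in both single depletions. PTK7 is a pseudokinase receptor of planar polarity (probe set 207011_s_at, chr6:43076314-43161715). Its signals were 8.23, 8.02, 8.30 and 8.0 in siAPC/siTAZ cells and 7.52, 7.56, 7.43 and 7.39 in siAPC cells. They were 7.43, 7.50, 7.31 and 7.44 in sibcat/siTAZ cells, 7.21, 7.15, 7.40 and 7.20 in sibcat cells, and 7.79, 7.94, 7.93 and 7.92 in siGFP cells. The siAPC/siTAZ arrays were highest, siGFP came next, and the other 3 groups overlapped in part. PTK7 fell by 0.42 ± 0.07 in siAPC cells (adjusted p = 5.7e-05) and by 0.65 ± 0.07 in sibcat cells (1.57-fold lower, adjusted p = 2.7e-07). TAZ siRNA raised it on siAPC by 0.66 ± 0.07 (adjusted p = 1.4e-07) and was not called on sibcat (0.18, adjusted p = 0.0596), and the difference was 0.48 ± 0.10 (adjusted p = 0.00088). With the mean over both PTK7 probe sets that difference was 0.22 (adjusted p = 0.239), the second probe set being near background (mean 3.55).

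RYK, a Wnt-binding pseudokinase receptor, had means of 10.72 ± 0.02 in siAPC/siTAZ cells, 10.31 ± 0.06 in siAPC cells, 10.51 ± 0.05 in sibcat/siTAZ cells, 10.41 ± 0.09 in sibcat cells and 10.55 ± 0.04 in siGFP cells. It fell by 0.23 ± 0.05 in siAPC cells relative to siGFP cells (adjusted p = 0.00031) and rose by 0.40 ± 0.05 with TAZ siRNA on siAPC (adjusted p = 3.2e-07). Its fall of 0.14 in sibcat cells (adjusted p = 0.0221) was lost without siGFP replicate A (adjusted p = 0.0688) or sibcat replicate D (0.0907). TAZ siRNA on sibcat gave no called change, and the effects differed by 0.31 ± 0.06 (adjusted p = 0.00095). ROR2, the other ROR kinase, was near background in every group. Its means were 3.12 ± 0.13 in siAPC/siTAZ cells, 3.21 ± 0.06 in siAPC cells, 3.77 ± 0.16 in sibcat/siTAZ cells, 3.50 ± 0.19 in sibcat cells and 3.50 ± 0.09 in siGFP cells. The largest called ROR2 difference, -0.65 ± 0.09 between siAPC/siTAZ and sibcat/siTAZ cells (adjusted p = 3.6e-06), is therefore one between signals below background.

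The remaining calls were those of members near background or with changes under 0.5. Over the 8 two-group comparisons together, 40.4% of the results of all genes were called. The 12 members near background had 10 called results among their 96 two-group results, with changes from -0.65 to 0.28. The 9 members above background without a change of 0.5 (WNT6, WNT7A, WNT7B, WNT9A, WNT10B, WNT16, FZD6, LRP5 and RYK) had 18 among 72, from -0.40 to 0.40. Of the 11 members above background with a change of at least 0.5, 10 have more than 1 probe set. Of the 65 called two-group differences of those 10, 47 had another probe set called in the same direction. For 2 of the 65, another probe set was called in the opposite direction. These were FZD1 in sibcat cells and FZD3 in siAPC/siTAZ cells, each against siGFP cells. The FZD3 one also had 2 others called in its own direction, so it is among the 47. FZD10, which has a single probe set, is not in that count, so its calls have no such check.

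Against siGFP, 6 of the 32 members were higher in siAPC cells, where 21.3% of all genes tested were, and 9 were lower, where 18.7% were. ROR1, FZD2, FZD7, WNT5A, FZD6 and WNT2B rose, and FZD10, FZD5, FZD3, FZD1, PTK7, RYK, WNT7A, WNT16 and ROR2 fell. WNT2B and ROR2 were near background, and the WNT2B call (0.22, adjusted p = 0.0286) was lost in 6 alternatives, among them those without siAPC replicate B (adjusted p = 0.0961) or D (0.0919) or siGFP replicate A (0.0807) or C (0.0917). The median change of the members was -0.10, against 0.00 over all genes. In sibcat cells 5 members were higher (21.4% of all genes) and 4 lower (15.7%), with a median of -0.03 against 0.00. Here FZD2, ROR1, WNT5A, FZD1 and LRP6 rose and PTK7, FZD10, WNT7A and RYK fell. Both counts of rises are near or below the share of all genes. The 2 comparisons share the siGFP arrays. Compared directly, 4 members were higher in siAPC than in sibcat cells (16.3% of all genes) and 6 lower (17.5%). FZD7 was 0.70 higher and ROR1 0.37 higher in siAPC cells (adjusted p = 1.3e-10 and 2.6e-05), FZD1, FZD5 and FZD3 were lower by 0.94, 0.77 and 0.61, and FZD10 was at least 1.42-fold lower.

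**Figure D3:**
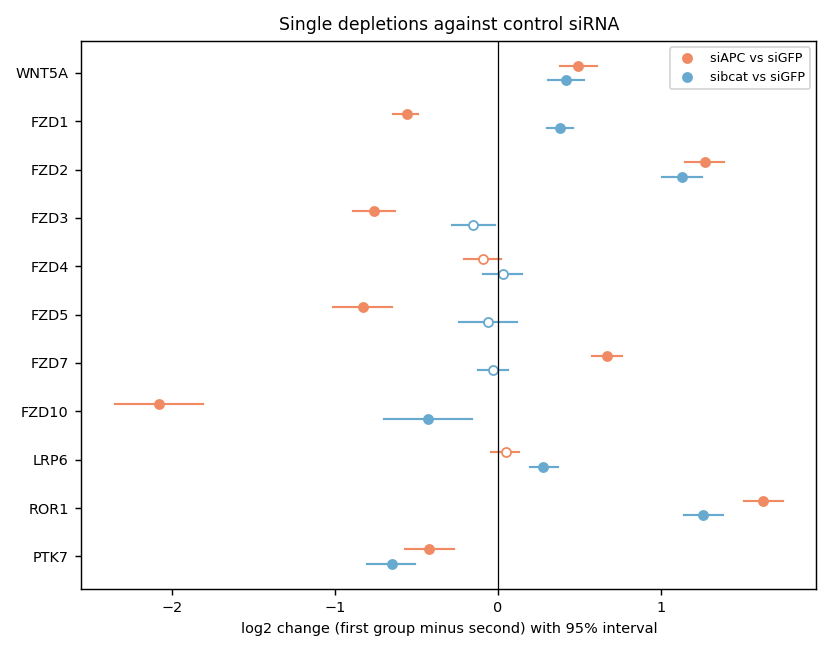
Log2 change of the 11 members in siAPC cells (orange) and sibcat cells (blue) relative to siGFP cells, with 95% intervals from the limma fit. Filled points passed an adjusted p of 0.05 and open ones did not. FZD2, ROR1 and WNT5A lie right of 0 in both, PTK7 and FZD10 left of 0 in both, and FZD1 on opposite sides.

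When TAZ siRNA was added to siAPC, 9 members were higher (20.7% of all genes) and 5 lower (22.8%). FZD10, FZD7, FZD1, PTK7, FZD3, LRP6, RYK, WNT5A and WNT16 rose, and FZD2, FZD5, WNT10B, WNT8B and FZD4 fell. WNT8B was near background, and its call (-0.24, adjusted p = 0.0404) was lost without siAPC replicate A (adjusted p = 0.175) or B (0.0892) or without any 1 of the 4 siAPC/siTAZ arrays (0.0545 to 0.0973). Added to sibcat, 6 members were higher (18.0%) and 6 lower (13.7%), with FZD10, FZD1, FZD4, LRP6, FZD3 and ROR2 higher and FZD2, ROR1, FZD7, WNT9A, WNT5A and FZD5 lower. The ROR2 call (0.27, adjusted p = 0.0238) was lost without sibcat replicate A (adjusted p = 0.102) or D (0.0513) or sibcat/siTAZ replicate B (0.101). The members' median was -0.02 in both, against -0.02 and 0.00 over all genes. In both backgrounds the summed fibroblast markers and the ACTB measure were also higher with TAZ siRNA and the summed epithelial markers lower, as given above. The effect of TAZ siRNA was larger or more positive on siAPC than on sibcat for 9 members (12.2% of all genes) and smaller or more negative for 3 (15.5%). The Frizzled and kinase-type families, with 9 and 4 of the 32 measured members, held 6 of the positive ones (FZD3, FZD7, FZD10, ROR1, RYK and PTK7), beside WNT5A, WNT9A and LRP6. They also held all 3 negative ones, FZD4, FZD5 and ROR2. The FZD10 difference rests on siAPC signals below background, and ROR2 was near background in every group. For FZD7, WNT5A and FZD4 the called effects ran in opposite directions in the 2 backgrounds. The second WNT5A probe set (mean 10.42) was called lower with TAZ siRNA on sibcat (-0.39) but not called on siAPC (-0.06, adjusted p = 0.529). For FZD4, the fall on siAPC was lost without certain single arrays and the rise on sibcat with the mean over probe sets, as given above.

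**Figure D4:**
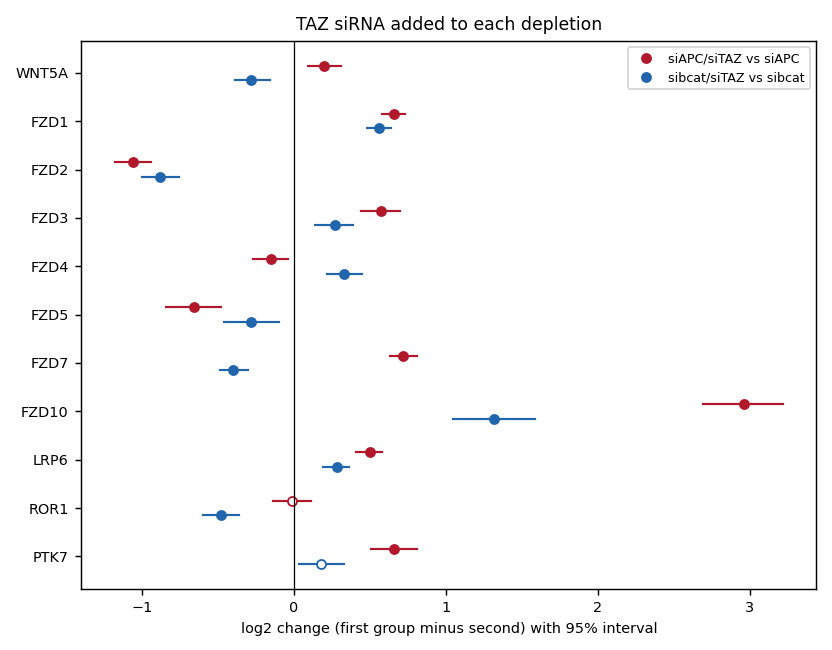
Log2 change of the 11 members when TAZ siRNA was added to siAPC (red, siAPC/siTAZ minus siAPC) and to sibcat (blue, sibcat/siTAZ minus sibcat), with 95% intervals. Filled points passed an adjusted p of 0.05. FZD10, FZD1, FZD3 and LRP6 lie right of 0 in both, FZD2 and FZD5 left of 0 in both, and FZD7, WNT5A and FZD4 on opposite sides. The FZD10 change on siAPC starts from signals below background.

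Set against siGFP, siAPC/siTAZ cells had 9 members higher (23.0% of all genes) and 6 lower (24.3%), with a median of -0.10 against -0.04 over all genes. ROR1 (3.07-fold), FZD7 (2.62-fold), FZD10 (1.84-fold), WNT5A (1.62-fold) and LRP6 (1.46-fold) were the largest rises, and FZD5 (2.81-fold) was the largest fall. The sibcat/siTAZ cells had 8 members higher (25.4%) and 6 lower (19.5%), with a median of -0.06 against -0.01. FZD1 (1.92-fold), FZD10 (1.86-fold), ROR1 (1.71-fold) and LRP6 (1.47-fold) were the largest rises and PTK7 (1.39-fold) and FZD7 (1.34-fold) the largest falls, that of PTK7 being -0.17 with the mean over its probe sets (adjusted p = 0.143). Another ROR1 probe set, also above background (mean 5.88), changed by 0.00 there and was not called, while the remaining one was called higher, by 0.69. Between the combined depletions, 6 members were higher in siAPC/siTAZ than in sibcat/siTAZ cells (20.8%) and 5 lower (24.2%). FZD7 led the first with 3.52-fold, followed by ROR1 (1.79-fold) and PTK7 (1.64-fold), and FZD5, FZD1 and FZD4 were lower by 1.15, 0.85 and 0.61.

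Other genes that act on these ligands and receptors were counted against the same shares of all genes, 21.3% higher and 18.7% lower in siAPC cells, 21.4% and 15.7% in sibcat cells, 20.7% and 22.8% with TAZ siRNA on siAPC, and 18.0% and 13.7% with TAZ siRNA on sibcat. No list was tested as a whole. MESD, the chaperone that carries LRP5 and LRP6 to the surface, rose by 0.99 ± 0.04 in siAPC cells and 0.87 ± 0.04 in sibcat cells, and by a further 0.72 and 0.86 with TAZ siRNA (all adjusted p at most 5e-12). WLS, which carries Wnt ligands to the surface, rose by 0.67 ± 0.04 with TAZ siRNA in each background, and these were the 2 of 4 measured secretion genes that rose there. Of 18 extracellular antagonists, 4 rose and 4 fell in siAPC cells, and 6 rose and 3 fell when TAZ siRNA was added to them. DKK2, a relative of DKK1 that binds LRP6, averaged 9.04 ± 0.11 in siAPC/siTAZ cells and 6.13 ± 0.15 in siAPC cells, and 2.68 ± 0.07 in sibcat/siTAZ cells, 2.52 ± 0.05 in sibcat cells and 2.66 ± 0.06 in siGFP cells. It was at least 1.84-fold higher in siAPC cells than in siGFP cells (adjusted p = 1.6e-18), and TAZ siRNA on siAPC raised it by a further 2.91 ± 0.07 (adjusted p = 2e-17). DKK3, a divergent member of the family, rose by 2.19 ± 0.05 in siAPC cells and 2.07 ± 0.05 in sibcat cells (adjusted p = 2.7e-17 and 1.1e-16), and changed by -1.72 ± 0.05 with TAZ siRNA on siAPC (adjusted p = 1e-15). The LRP5/6 antagonist DKK1 rose by 0.69 in siAPC cells and 0.63 in sibcat cells and changed by -2.30 with TAZ siRNA on siAPC and -2.29 on sibcat (adjusted p = 2.7e-19 and 6.5e-19). The Frizzled decoy SFRP1 moved the other way on siAPC, falling by 0.74 in siAPC cells and rising by 1.59 with TAZ siRNA. Of 9 R-spondin and receptor turnover genes, 3 rose in siAPC cells, namely the ligases ZNRF3 (0.73) and RNF43 (0.76), which remove Frizzleds from the surface, and the R-spondin receptor LGR6 (at least 2.11-fold, adjusted p = 3.5e-07). In sibcat cells 0 of the 9 rose and 3 fell, RNF43 by 0.60, ZNRF3 by 0.39 and LGR4 by 0.34. Of 12 other membrane partners, 2 rose and 2 fell in siAPC cells, and 2 rose and 4 fell in sibcat cells. LYPD6, a partner of LRP6, averaged 8.15 ± 0.07 in siAPC cells and 7.73 ± 0.19 in sibcat cells, and was below background in the other 3 groups. It was at least 7.47-fold lower in siAPC/siTAZ than in siAPC cells and at least 5.60-fold lower in sibcat/siTAZ than in sibcat cells (adjusted p = 1.8e-17 and 4.4e-16).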

How the data were processed

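Total RNA of 20 samples was measured on 1 array each. The authors' deposited values are log2 signals made with RMA, per the submitters' processing notes, with a scale read from their range; no source used here names its version. RMA equalises the distribution of signals between arrays and compresses changes of dim probe sets. Of 54675 probe sets, 41097 carried 1 gene symbol, 1801 several and 11777 none, and 62 control probe sets were left out. Each of 19775 genes was represented by its brightest probe set on average. One mean per group was fitted across the 20 arrays with limma 3.58.1 in R 4.3.3 (15 residual degrees of freedom, median residual SD 0.108), two-sided, with Benjamini-Hochberg adjustment over all genes in each of 9 comparisons, without a filter. The fit was tested on simulated data. The number of arrays limits the precision. Values on all 20 arrays were printed for members above background in 1 group or more and called with a change of at least 0.5 in a two-group comparison, and pathway genes by the smallest adjusted p of each list. The members and lists were chosen with earlier results of these data known. Promoter sequences came from RefSeq. The alternatives tried were another choice of probe sets, filters, centring, variance model, background bound, the groups in the fit, the replicate block and leaving out single arrays.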

Additional observations from a re-analysis of the deposited data

Results flagged for a closer look

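The 11 members above background with a change of at least 0.5 gave 55 groups of 4 arrays. Of these, 4 held an array set apart from the other 3 by a gap that fills most of the group's range, where chance gives about 1 in 20 groups. FZD3 in siAPC/siTAZ replicate A was at 7.73, with the others at 7.93 to 7.95. FZD7 in sibcat/siTAZ replicate A was at 7.22, with the others at 7.39 to 7.41. FZD10 in sibcat replicate D was at 5.54, with the others at 5.80 to 5.85. PTK7 in siGFP replicate A was at 7.79, with the others at 7.92 to 7.94.

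By a limma interaction term, the effect of TAZ siRNA differed between the siAPC and the sibcat background for 12 members. It was more positive on siAPC for 9 (12.2% of all genes) and more negative for 3 (15.5%). The APC and CTNNB1 signals also changed differently with TAZ siRNA in the 2 backgrounds, as given above. The effect on siAPC minus that on sibcat was 1.11 for FZD7 (adjusted p = 6.8e-11). It was 0.48 for WNT5A (adjusted p = 7.3e-05), 0.47 for ROR1 (adjusted p = 0.00016) and 0.48 for PTK7 (adjusted p = 0.00088), which was 0.22 with the mean over its probe sets (adjusted p = 0.239). The fitted 1.63 for FZD10 (adjusted p = 8.2e-07) rests on siAPC signals below background. With those signals set to the background bound the difference was 0.49, a value with no test. Smaller positive differences were those of FZD3 (0.31, adjusted p = 0.0105), RYK (0.31, adjusted p = 0.00095), LRP6 (0.22, adjusted p = 0.00521) and WNT9A (0.28, adjusted p = 0.0499). Of the other FZD3 probe sets, 1 was called for this difference (0.39) and 2 were not (0.20 and 0.19, adjusted p = 0.262 and 0.166). Of the other LRP6 probe sets, 1 was called (0.23) and 1 was not (0.14, adjusted p = 0.353). The WNT9A call was lost in 18 alternatives, among them the mean over probe sets (0.12, adjusted p = 0.334). The difference was negative for FZD4 (-0.48, adjusted p = 7.8e-05), FZD5 (-0.38, adjusted p = 0.0219) and ROR2 (-0.36, adjusted p = 0.0405), which was near background in every group. The ROR2 call was lost in 14 alternatives. The FZD5 difference was not called without sibcat replicate B (adjusted p = 0.0505).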

How the results depend on the processing

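Under the alternatives other than leaving out an array, 846 recomputed results of called members kept their direction and call and 30 lost the call. When single arrays were left out, 919 kept both and 73 lost the call. None of these called results changed direction. When each probe set was tested on its own, the one with the smallest p was kept for each gene, a choice that favours calls. In that setting 17 members were called between siAPC/siTAZ and sibcat/siTAZ cells, against 11. Over all genes, 20.8% were higher and 24.2% lower in that comparison in the main fit. The alternatives other than leaving out an array gave 8533 to 9878 called genes there. Changes of sign occurred where the reported value was not called: FZD1 in siAPC/siTAZ against siGFP cells (0.09) became -0.18 with the mean over probe sets and -0.63 with each on its own, and FZD2 in siAPC/siTAZ against sibcat/siTAZ cells (-0.04) became 0.13 and 0.30, as other probe sets of each gene differed in direction there. The FZD1 value of -0.63 is that of its dimmest probe set (mean 3.16, below background), and the other dim one changed by -0.01. The interaction of WNT9A was lost in 18 alternatives and that of ROR2 in 14. With the replicate block, 15, 9, 13, 12 and 15 members were called for siAPC against siGFP, sibcat against siGFP, TAZ siRNA on siAPC, TAZ siRNA on sibcat and siAPC/siTAZ against siGFP, against 15, 9, 14, 12 and 15 without it, and the calls of WNT8B (-0.24, adjusted p = 0.0568) and WNT16 (0.24, adjusted p = 0.0591) for TAZ siRNA on siAPC and of the WNT9A interaction (0.28, adjusted p = 0.0695) were lost. The replicate letters did not pair the samples: over 40 same-letter pairs of arrays, the correlation of deviations from the group means had a median of 0.027 (from -0.088 to 0.156), and 7 of 20 arrays correlated best with their own letter. The members near background in all groups numbered 12, and 9 to 16 under other bounds or the mean over probe sets. Without single arrays, member counts ran from 8 to 16 over the two-group comparisons. Signal over background limits what can be said of the 12 dim members.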

Other observations

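Of 14 Dishevelled and planar polarity genes, which relay Frizzled signals inside the cell, 7 rose and 4 fell in siAPC cells, and 5 rose and 5 fell in sibcat cells. Of all genes, 21.3% rose and 18.7% fell in siAPC cells, and 21.4% rose and 15.7% fell in sibcat cells. PRICKLE1 was raised in both single depletions, by 1.05 ± 0.04 with siAPC and 0.48 ± 0.04 with sibcat, and fell by 1.30 and 1.62 with TAZ siRNA on each. The atypical cadherins CELSR1 and CELSR2 fell by 0.72 and 1.16 in siAPC cells, and rose by 0.76 and 0.84 when TAZ siRNA was added (adjusted p at most 3.8e-10). DAAM1, a formin bound by Dishevelled, fell by 0.88 in siAPC cells, by 0.78 in sibcat cells and by a further 1.46 with TAZ siRNA on sibcat. Of 9 beta-catenin readouts, 7 rose and 0 fell in siAPC cells, and 1 rose and 4 fell in sibcat cells. AXIN2, a negative regulator induced by beta-catenin, was at least 28.8-fold higher in siAPC cells than in siGFP cells (adjusted p = 4.1e-20). LEF1 averaged 9.46 in siAPC cells and 6.50 in siGFP cells.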
